A study of Mus musculus with 12 samples.

Results

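The genes described here are 31 enzymes of sterol and fatty acid synthesis, taken by name from a list of both pathways and found among the 43626 genes counted in mouse BMDMs. The rule used names and no measured value, but the list was drawn up with earlier results of these data known. The sterol branch held 19 genes, from acetyl-CoA thiolase to the last step of cholesterol synthesis, and the fatty acid branch held 12, which supply the precursors, build the chain, and then lengthen or desaturate it. The list does not cover every enzyme of either pathway. All 31 had enough counts to be tested.

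Both branches start from acetyl-CoA. In the sterol branch, the mevalonate pathway makes isoprene units, which prenyl transferases and squalene synthase join to squalene, and a series of oxygen-dependent steps turns squalene through lanosterol into cholesterol. In the fatty acid branch, acetyl-CoA carboxylase and fatty acid synthase make palmitate, which elongases and desaturases convert to longer and unsaturated fatty acids. Transcription of many of these enzymes is driven by the SREBP transcription factors, which are held in the endoplasmic reticulum when sterols are plentiful, and macrophages are known to change their lipid synthesis when bacterial products are sensed.

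The study compared transcriptomes of quiescent BMDMs, which are macrophages grown from mouse bone marrow, with those of cells given LPS, 3′SL, or LPS and 3′SL together. LPS is a bacterial outer membrane component that activates TLR4, and 3′SL, which the labels call HMO, is a sialylated milk sugar. Each condition had 3 libraries, and the study's text gives 100 μg/mL 3′SL, 10 ng/mL LPS, and 6 hours. The labels name neither strain, genotype, age, donor, nor batch, so p-values measure the spread between these libraries, which may be technical. A figure legend of the paper calls its RNA-Seq replicates independent biological duplicates. The treatment field of the labels describes injections of living mice, which does not match cultured cells, so the conditions were taken from the field that names each intervention.

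Between 20411741 and 26851890 reads were counted on genes per library, and 14308 genes were tested. Levels are CPM, counts relative to the TMM-scaled library size. TMM factors lay between 0.700 and 1.30 and were lower with LPS, and scaling by total counts moved the all-gene median between LPS and PBS, on the log2 scale, from -0.06 to -0.71. By their residuals about the condition means, the libraries formed 3 sets that each held 1 library per condition, and values of single libraries are given in the order of sets 1, 2, and 3. Summed levels of 7 macrophage markers lay between 17430 and 27630 CPM in every library. They were higher with LPS in each set, at 17430, 19380, and 20330 CPM with PBS and 24620, 26020, and 27280 CPM with LPS. A sum of 5 LPS response genes rose from 20.2 to 73.2 CPM with PBS to 7820 to 11490 CPM with LPS. The 6 adipocyte markers, of which 4 had no read in any library, summed to at most 0.144 CPM. The 7 stromal markers summed to 638 to 745 CPM in set 1, 27.8 to 48.3 CPM in set 2, and 69.8 to 117 CPM in set 3. The stromal sum was higher with LPS in each set, at 638, 27.8, and 87.0 CPM with PBS and 729.5, 48.3, and 117 CPM with LPS. Markers of another 2 cell types also had higher summed levels with LPS in each set. The sum of 5 dendritic cell markers went from 1.46, 0.912, and 1.48 CPM with PBS to 7.77, 5.62, and 14.8 CPM with LPS, the latter mostly *Xcr1*, and the sum of 5 neutrophil markers from 34.3, 65.9, and 134 CPM to 59.6, 112, and 267 CPM, most of it *Ltf*. With LPS + 3′SL the dendritic cell sum was 7.23, 6.62, and 15.8 CPM and the neutrophil sum 55.5, 102, and 259 CPM. The stromal sum was then 745, 36.1, and 93.9 CPM. The part of these cell types in the results was not tested.

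LPS lowered parts of both branches. Against PBS, 7 of 19 sterol enzymes were lower and none was higher, at an edgeR adjusted p under 0.05 and at least 1.5-fold. Among the 12 fatty acid enzymes, 5 were lower and 1 was higher. Of all genes tested, 20.2% were called lower and 18.3% higher. The median log2 fold change was -0.43 over the sterol enzymes and -0.69 over the fatty acid enzymes, beside -0.06 over all genes tested. Fold changes lay below 0 for 15 sterol and 10 fatty acid enzymes, beside 53.2% of all genes. In bulk RNA, fewer cells of a type and less RNA per cell cannot be told apart.

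The fatty acid branch held the largest fall, that of *Elovl6*, and also the only rise past the test, that of *Acss2*. Every LPS library lay below every PBS library for 12 sterol and 6 fatty acid enzymes, beside 31.1% of all genes. In each library set the median log2 ratio of LPS to PBS was below 0 in both branches. It was -0.27, -0.23, and -0.59 for the sterol enzymes and -0.54, -1.29, and -0.85 for the fatty acid enzymes. All 5 proliferation markers also had fold changes below 0 with LPS, none past both thresholds in edgeR and DESeq2, 1 (*Cdk1*) with total counts, and 4 with the library sets as a block. Their sum was 547, 609, and 145 CPM with PBS and 283, 269, and 104 CPM with LPS, and its part in these results was not tested.

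**Figure D1:**
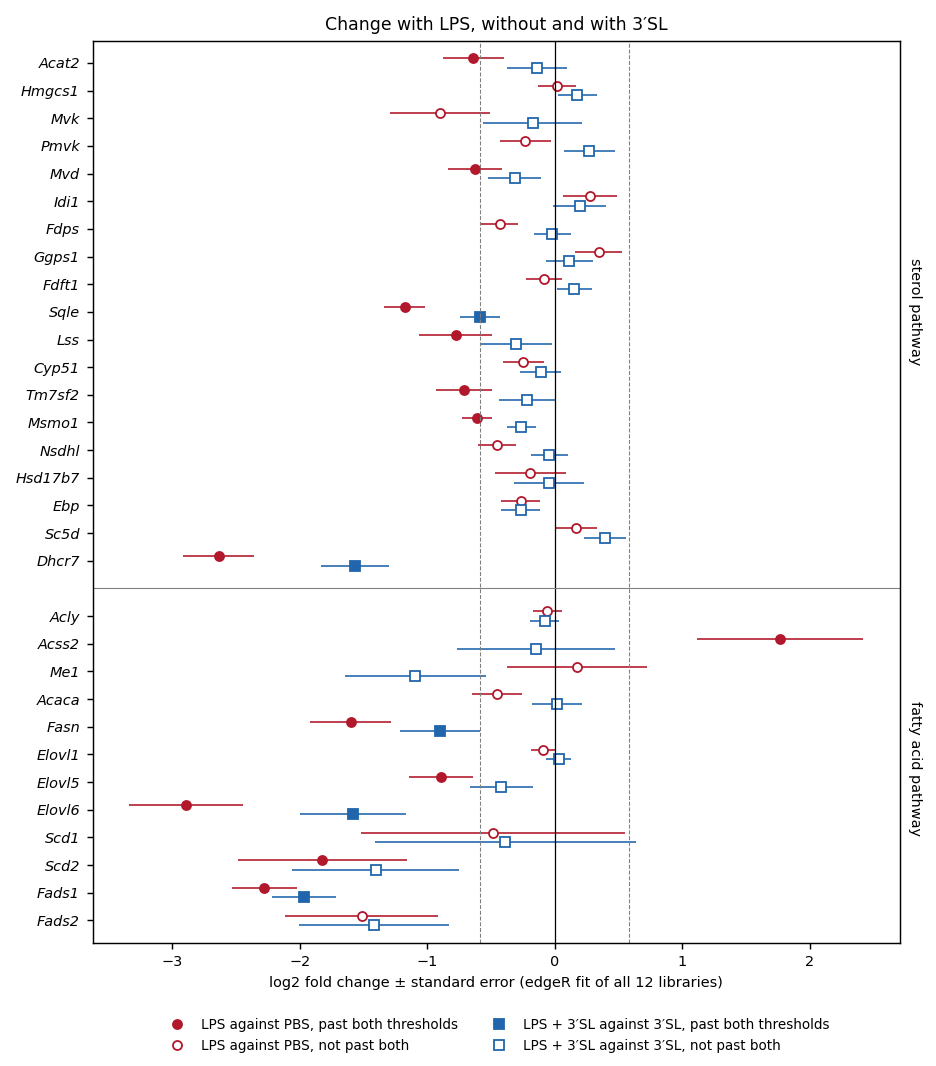
Log2 fold change of each enzyme between LPS and PBS (red circles) and between LPS + 3′SL and 3′SL (blue squares), on the x axis, with the standard error of the edgeR fit as a bar. Filled symbols passed both thresholds, and dashed lines mark 1.5-fold. Filled symbols lie left of 0 except *Acss2*, and the symbols farthest to the left are *Elovl6*, *Dhcr7*, and *Fads1*.

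Among sterol enzymes, the fall was largest at the end of the pathway. *Dhcr7* (ENSMUSG00000058454.10, chromosome 7: 143823145-143848410 of GRCm38, plus strand) encodes 7-dehydrocholesterol reductase, which makes cholesterol from 7-dehydrocholesterol. Its level was 35.4, 36.2, and 27.4 CPM with PBS and 6.20, 5.33, and 4.36 CPM with LPS. The LPS libraries lay far below the PBS libraries in every set. The log2 fold change was -2.64 ± 0.28 (SE, n = 3 per group), 6.22-fold lower, with an edgeR adjusted p of 2.51e-05. The call remained when any 1 of the 12 libraries was left out.

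*Sqle* (ENSMUSG00000022351.10, chromosome 15: 59315077-59331192, plus strand) encodes squalene epoxidase, a rate-limiting step after squalene. It stood at 156, 130.3, and 172 CPM with PBS and at 78.8, 64.9, and 59.1 CPM with LPS, with no overlap. The log2 fold change was -1.18 ± 0.16 (edgeR adjusted p = 0.000141), and this call too remained without any 1 library. *Lss*, lanosterol synthase, closes the sterol rings (ENSMUSG00000033105.8, chromosome 10: 76531588-76557138, plus strand). It was at 41.2, 40.1, and 28.3 CPM with PBS and at 27.1, 23.1, and 13.7 CPM with LPS, so the groups lay just apart. Its log2 fold change was -0.78 ± 0.29 (edgeR adjusted p = 0.0458), and the call was kept in 3 of 12 fits that left out 1 library. Fits that lost it include some without a 3′SL or LPS + 3′SL library, which is outside this comparison but shares the estimate of spread. *Fdft1*, squalene synthase, which makes the substrate of *Sqle*, had a log2 fold change of -0.08 ± 0.14 with overlapping groups.

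The mevalonate enzymes moved less evenly. *Acat2*, the cytosolic acetyl-CoA thiolase (ENSMUSG00000023832.9, chromosome 17: 12942890-12960747, minus strand), was at 23.2, 17.8, and 14.1 CPM with PBS and at 12.6, 11.7, and 11.1 CPM with LPS. Its lowest PBS library was close to its highest LPS library, and the log2 fold change was -0.64 ± 0.24 (edgeR adjusted p = 0.0484). Transcripts of *Acat2* share 39.1% of their 50-nucleotide words with other genes, mainly *Acat3*, so its level is uncertain. *Mvd*, mevalonate diphosphate decarboxylase (ENSMUSG00000006517.4, chromosome 8: 122433601-122443422, minus strand), was at 36.0, 30.6, and 36.4 CPM with PBS and at 24.8, 25.4, and 16.6 CPM with LPS. The groups did not overlap, and its log2 fold change was -0.62 ± 0.21 (edgeR adjusted p = 0.0309). The calls of *Acat2* and *Mvd* were kept in 3 and 9 of 12 fits that left out 1 library. For *Acat2*, the fits that lost it include some without a library outside this comparison.

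*Hmgcs1*, HMG-CoA synthase, which condenses acetyl-CoA with acetoacetyl-CoA at the head of the pathway (ENSMUSG00000093930.1, chromosome 13: 119690379-119708260, plus strand), differed from this. It was at 193, 160.1, and 178 CPM with PBS and at 202, 187, and 149 CPM with LPS. The groups overlapped, and the log2 fold change was 0.02 ± 0.15 (edgeR adjusted p = 0.938). This value depends on the scaling and on single libraries. With total counts it was -0.62 and passed both thresholds, beside an all-gene median of -0.71 and 46.5% of all genes called lower. Without the LPS library of set 1 or 2 or the PBS library of set 2 it lay below 0 (at lowest -0.08). *Mvk*, mevalonate kinase, was lower in every set, with a log2 fold change of -0.90 ± 0.39 and an edgeR adjusted p of 0.0842. With the library sets as a block, it was called (adjusted p = 0.00106). *Pmvk*, phosphomevalonate kinase, was at -0.23 ± 0.20 and *Idi1*, isopentenyl diphosphate isomerase, at 0.28 ± 0.21, neither past the test.

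Between the mevalonate enzymes and *Dhcr7*, *Tm7sf2* and *Msmo1* were called, in addition to *Sqle* and *Lss*, and neither prenyl diphosphate synthase was called, by edgeR. *Fdps*, farnesyl diphosphate synthase, and *Nsdhl*, a sterol dehydrogenase, passed the adjusted p (0.0317 and 0.0265 in edgeR) but not the fold minimum, at -0.43 ± 0.15 and -0.45 ± 0.15. *Ggps1*, which makes geranylgeranyl diphosphate for protein prenylation, was at 0.35 ± 0.18, and its LPS libraries all lay above its PBS libraries. *Tm7sf2*, a sterol reductase (ENSMUSG00000024799.10, chromosome 19: 6062821-6068373, minus strand), was at 7.93, 9.16, and 8.03 CPM with PBS and at 6.84, 4.99, and 3.5 CPM with LPS. Its groups did not overlap, its log2 fold change was -0.71 ± 0.22 (edgeR adjusted p = 0.0214), and exons of *Vps51* overlap it on the same strand. *Msmo1*, a methylsterol oxidase, fell by 0.61 on the log2 scale (SE 0.12, edgeR adjusted p = 0.00152).

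*Msmo1* fell by close to the fold minimum, and its call was lost without the PBS library of set 1 or 3 or the LPS library of set 2 or 3. *Tm7sf2* was called in 9 of 12 such fits. *Cyp51*, *Hsd17b7*, and *Ebp*, of the same steps, had log2 fold changes of -0.25 ± 0.16, -0.19 ± 0.28, and -0.27 ± 0.15, and *Sc5d*, the sterol C5 desaturase just before *Dhcr7*, was at 0.17 ± 0.16. None of these 4 passed the test. Counts of the sterol branch depended on single libraries. Against 7 enzymes in all libraries, 3 were called without the PBS library of set 1, 4 without the PBS library of set 2, 3 without the LPS library of set 2, and 2 without the LPS library of set 3. All genes called lower in these 4 fits numbered 2525 of 14633, 2428 of 14676, 2590 of 14714, and 2408 of 14722.

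**Figure D2:**
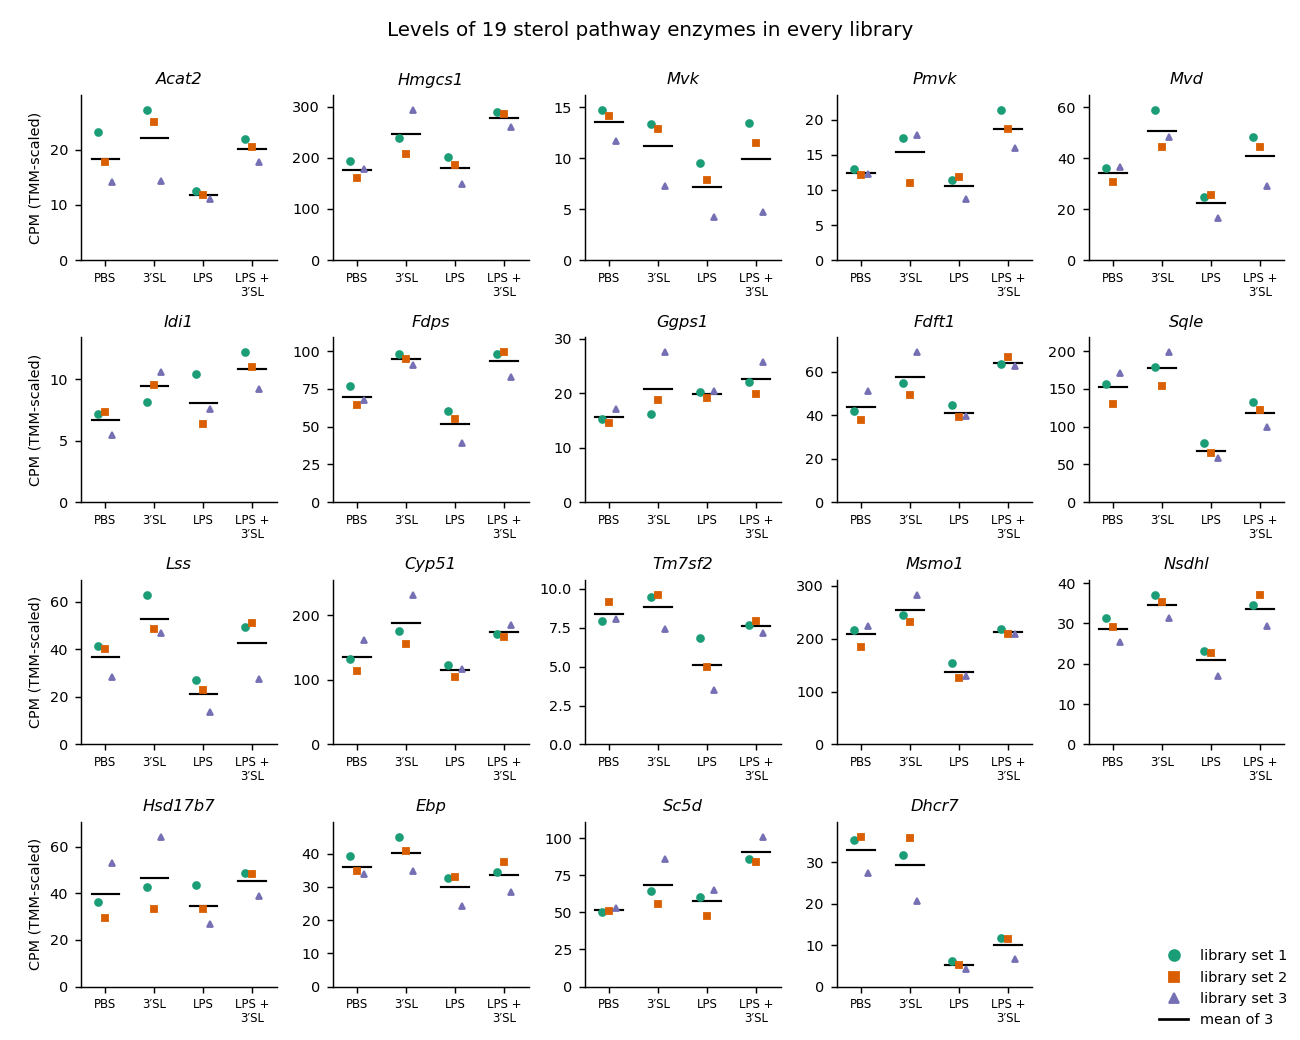
Levels of the 19 sterol enzymes in every library, in TMM-scaled CPM on linear axes that start at 0, with 1 panel per gene and the 4 conditions on the x axis. Symbols mark the library sets and the bar is the mean of 3 libraries. *Dhcr7* falls from a mean of 33.0 CPM with PBS to 5.30 CPM with LPS, whereas *Hmgcs1* has means of 177 and 179 CPM.

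Promoter windows of 250 bases before to 50 bases after a start site were taken from RefSeq for GRCm38.p6, which held 30 windows for 25 of the 31 enzymes. *Fdps*, *Fdft1*, *Sqle*, *Scd1*, *Scd2*, and *Fads1* had no window. The motifs searched, each on both strands, were the core of the sterol regulatory element (TCACNCCAC) and the CCAAT box (CCAAT), which do not overlap each other in any window printed. The sterol core was found in 1 member window (3.33%), that of *Hmgcs1*, beside 1.24% of all 32817 windows. The CCAAT box was in 21 member windows (70%), beside 37.4% of all. It was in 78.9% of the 19 sterol windows and 54.5% of the 11 fatty acid windows. A match is a description of letters and not a binding site. The windows shown are those of the sterol enzyme with the largest fall, of the sterol enzyme that holds the core, of fatty acid synthase, and of the elongase with the largest fall in the other branch, with matches in capitals. They lie at chr7:143829964-143830263 (plus strand, *Dhcr7*), chr13:119690101-119690400 (plus strand, *Hmgcs1*), chr11:120824498-120824797 (minus strand, *Fasn*), and chr3:129532136-129532435 (plus strand, *Elovl6*). Another 2 windows of *Dhcr7* held neither motif.
Dhcr7: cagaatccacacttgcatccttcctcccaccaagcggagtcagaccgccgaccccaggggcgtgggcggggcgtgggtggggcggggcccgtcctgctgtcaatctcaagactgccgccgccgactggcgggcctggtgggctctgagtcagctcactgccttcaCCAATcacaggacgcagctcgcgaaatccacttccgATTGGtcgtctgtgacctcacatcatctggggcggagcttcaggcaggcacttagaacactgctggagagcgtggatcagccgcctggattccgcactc
Hmgcs1: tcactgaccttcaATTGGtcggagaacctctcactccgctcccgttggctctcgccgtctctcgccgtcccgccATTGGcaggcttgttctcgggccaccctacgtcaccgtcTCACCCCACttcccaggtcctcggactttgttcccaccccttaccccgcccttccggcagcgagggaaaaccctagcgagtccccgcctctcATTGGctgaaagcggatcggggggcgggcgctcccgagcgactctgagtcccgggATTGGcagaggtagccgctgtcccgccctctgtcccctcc
Fasn: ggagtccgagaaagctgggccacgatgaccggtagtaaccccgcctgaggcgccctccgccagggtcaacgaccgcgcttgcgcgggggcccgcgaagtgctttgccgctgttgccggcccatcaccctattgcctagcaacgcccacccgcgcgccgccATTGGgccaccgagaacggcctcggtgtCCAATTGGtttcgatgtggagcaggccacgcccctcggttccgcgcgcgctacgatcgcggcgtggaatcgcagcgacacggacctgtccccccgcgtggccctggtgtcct
Elovl6: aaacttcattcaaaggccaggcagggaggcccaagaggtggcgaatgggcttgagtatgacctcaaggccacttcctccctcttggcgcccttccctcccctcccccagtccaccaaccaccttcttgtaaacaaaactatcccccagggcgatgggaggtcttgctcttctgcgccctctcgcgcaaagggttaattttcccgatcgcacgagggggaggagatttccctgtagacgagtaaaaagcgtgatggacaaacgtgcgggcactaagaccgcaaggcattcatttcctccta
In *Dhcr7*, both capital runs are CCAAT boxes, the second on the opposite strand. In *Hmgcs1*, the sterol core begins 137 bases before the start site (position -137), between CCAAT boxes on the opposite strand. In *Fasn*, a CCAAT box on each strand overlaps in the longer capital run. The *Elovl6* window held neither motif.

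Of the 3 enzymes that supply precursors to the fatty acid branch, none was called lower by edgeR. *Acly*, ATP citrate lyase, which makes cytosolic acetyl-CoA from citrate, had a log2 fold change of -0.06 ± 0.11 with LPS, with overlapping groups. With total counts it was called lower (-0.70, edgeR adjusted p = 0.00850), beside an all-gene median of -0.71 and 46.5% of all genes called lower. *Me1*, malic enzyme, a source of NADPH, was at 0.17 ± 0.55, also with overlap, and lay between -0.08 and 0.35 when 1 library was left out. *Acss2*, which makes acetyl-CoA from acetate (ENSMUSG00000027605.14, chromosome 2: 155517948-155585724, plus strand), was the only member called higher. It was at 2.01, 1.44, and 2.23 CPM with PBS and at 6.45, 7.36, and 5.59 CPM with LPS. All LPS libraries lay above all PBS libraries, with a log2 fold change of 1.77 ± 0.65 (edgeR adjusted p = 0.0450). The log2 fold change lay between 1.61 and 1.90 in all 12 fits that left out 1 library. The call was kept in 3 of them, those without a 3′SL library, which is not in this comparison but shares the estimate of spread. It was lost with total counts (log2 fold change 1.13), and DESeq2 gave no adjusted p. Exons of *Gss*, *Ggt7*, and *Acss2os* overlap *Acss2* on the other strand, and whether counting used the strand is not given.

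Chain synthesis was lower at *Fasn*. *Fasn*, fatty acid synthase (ENSMUSG00000025153.8, chromosome 11: 120805846-120824547, minus strand), was at 154, 176, and 132 CPM with PBS and at 68.9, 57.0, and 26.6 CPM with LPS. The groups lay well apart, and the log2 fold change was -1.60 ± 0.32 (edgeR adjusted p = 0.00185), a call that remained without any 1 library. *Acaca*, acetyl-CoA carboxylase, which makes the malonyl-CoA that *Fasn* uses, was at -0.45 ± 0.20 (edgeR adjusted p = 0.0820). Its groups did not overlap, and the difference missed the test.

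Elongases differed among themselves. *Elovl6*, which lengthens palmitate to stearate (ENSMUSG00000041220.6, chromosome 3: 129532355-129638495, plus strand), was at 11.3, 11.2, and 7.86 CPM with PBS and at 1.95, 1.31, and 0.798 CPM with LPS, from 13 to 40 reads per library. This was the largest fall of any member, at a log2 fold change of -2.89 ± 0.45 (7.41-fold lower, edgeR adjusted p = 0.000359). *Elovl5*, which lengthens polyunsaturated fatty acids (ENSMUSG00000032349.9, chromosome 9: 77917364-77984519, plus strand), was at 50.5, 55.0, and 34.1 CPM with PBS and at 29.0, 26.1, and 20.1 CPM with LPS. Its groups did not overlap and its log2 fold change was -0.89 ± 0.25 (edgeR adjusted p = 0.0131), a call lost without the PBS library of set 2 or the LPS library of set 3. *Elovl1*, an elongase of saturated very long chains, had the highest level per kilobase of all members with PBS, at 52.7 CPM per kb, and a log2 fold change of -0.09 ± 0.10 with overlapping groups.

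All 4 desaturases had lower fold changes, and 2 were called. *Fads1*, the Δ5 desaturase of polyunsaturated fatty acids (ENSMUSG00000010663.4, chromosome 19: 10182888-10196877, plus strand), was at 90.0, 91.8, and 85.3 CPM with PBS and at 23.0, 18.9, and 13.1 CPM with LPS. Its groups lay far apart, at a log2 fold change of -2.28 ± 0.25 (4.85-fold lower, edgeR adjusted p = 3.82e-05). *Scd2*, a stearoyl-CoA desaturase (ENSMUSG00000025203.5, chromosome 19: 44293674-44306864, plus strand), was at 192, 144, and 108 CPM with PBS and at 83.6, 32.0, and 9.82 CPM with LPS. The LPS libraries lay below the PBS libraries but were spread widely among themselves, and the log2 fold change was -1.82 ± 0.66 (edgeR adjusted p = 0.0431). It was called in 3 of 12 fits that left out 1 library, and fits that lost the call include some without a library outside this comparison.

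*Fads2*, the Δ6 desaturase, had a log2 fold change of -1.51 ± 0.60 (edgeR adjusted p = 0.0602). Its lowest PBS library (2.13 CPM) lay within the LPS range of 1.11 to 3.42 CPM, but it was lower with LPS in each set, and with the library sets as a block it was called (adjusted p = 0.000462). *Scd1*, the closest relative of *Scd2*, was at 5.34, 1.65, and 1.45 CPM with PBS and at 4.98, 0.581, and 0.430 CPM with LPS. It was highest in set 1, where stromal markers summed to 638 CPM with PBS and 729.5 CPM with LPS, against at most 117 CPM in the other sets, and the part of stromal cells in its level was not tested. Its log2 fold change was -0.49 ± 1.04 (edgeR adjusted p = 0.744), and 1 library set its size and sign. It was -2.46 without the LPS library of set 1 and 0.38 without the PBS library of set 1, neither past the test. *Scd1* and *Scd2* share 4.56% and 3.97% of their words with each other and *Scd3*.

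**Figure D3:**
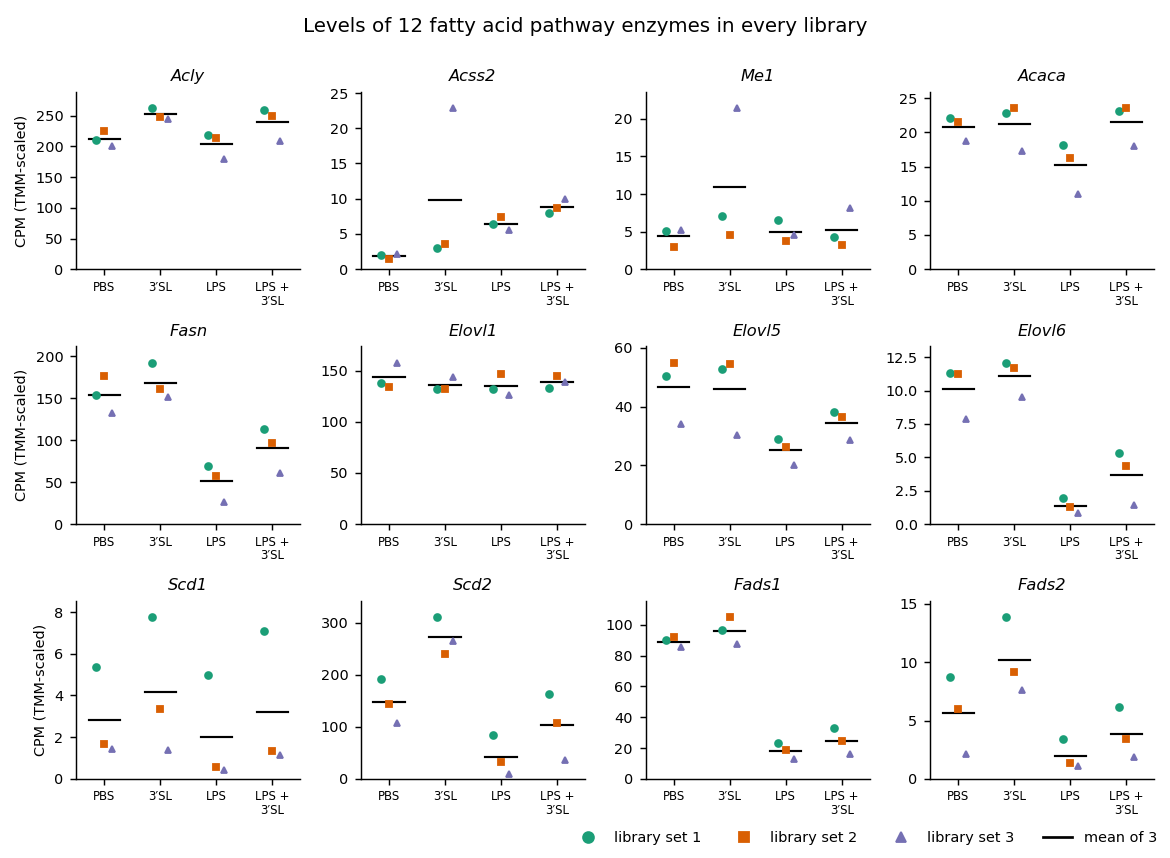
Levels of the 12 fatty acid enzymes in every library, in TMM-scaled CPM on linear axes that start at 0, with 1 panel per gene and the 4 conditions on the x axis. Symbols mark the library sets and the bar is the mean of 3 libraries. *Fads1* falls from a mean of 89.1 CPM with PBS to 18.3 CPM with LPS, *Acly* has means of 212 and 204 CPM, and the 3′SL library of set 3 stands apart for *Acss2* (22.9 CPM) and *Me1* (21.5 CPM).

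With the library sets as a block, 8 sterol enzymes were lower and 6 fatty acid enzymes were lower and 1 higher between LPS and PBS, beside 24% of all genes called lower and 20.5% higher. With DESeq2, 4 sterol and 6 fatty acid enzymes were lower, beside 19.8% of all genes. *Sqle*, *Lss*, *Tm7sf2*, and *Dhcr7* of the sterol branch and *Fasn*, *Elovl5*, *Elovl6*, *Scd2*, and *Fads1* of the fatty acid branch were called lower by edgeR, by the block fit, and by DESeq2. Under scaling by total counts, 16 sterol and 9 fatty acid enzymes were called lower and none higher, beside 46.5% of all genes lower and 10.7% higher, at medians of -1.06 and -1.31 beside -0.71 over all genes. Fold changes then lay below 0 for 19 sterol and 11 fatty acid enzymes, so those of *Hmgcs1*, *Idi1*, *Ggps1*, *Sc5d*, and *Me1* changed sign with the scaling.

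The LPS comparison was repeated in cells given 3′SL. Between LPS + 3′SL and 3′SL, 2 of 19 sterol enzymes and 3 of 12 fatty acid enzymes were lower by edgeR and none was higher, beside 14.8% of all genes lower and 14.3% higher. The median log2 fold change was -0.11 over the sterol enzymes and -0.66 over the fatty acid enzymes, beside -0.07 over all genes. Under scaling by total counts these were -0.58, -1.12, and -0.54. Groups lay apart, with LPS + 3′SL lower, for 3 sterol and 5 fatty acid enzymes, beside 24.2% of all genes. The enzymes called were *Sqle* (-0.59 ± 0.16, edgeR adjusted p = 0.0134), *Dhcr7* (-1.57 ± 0.26, adjusted p = 0.000927), *Fasn* (-0.90 ± 0.31, adjusted p = 0.0445), *Elovl6* (-1.58 ± 0.42, adjusted p = 0.0125), and *Fads1* (-1.97 ± 0.25, adjusted p = 0.000148).

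*Dhcr7* was at 31.8, 35.9, and 20.6 CPM with 3′SL and at 11.8, 11.4, and 6.54 CPM with LPS + 3′SL. *Fads1* was at 96.4, 105, and 87.3 CPM with 3′SL and at 33.2, 24.6, and 15.9 CPM with LPS + 3′SL. In both, the groups lay apart in every set, and both calls, like that of *Elovl6*, remained without any 1 library. *Sqle*, at 1.5-fold, was called in 5 of 12 such fits and *Fasn* in 3. For both, fits that lost the call include some without a PBS or LPS library, which is outside this comparison. The 3′SL library of set 3 set the value of *Acss2*. Its log2 fold change was -0.15 ± 0.62 in all libraries and 1.46 without that library, then past both thresholds (edgeR adjusted p = 0.00110). With the library sets as a block, 6 fatty acid enzymes were lower, which added *Me1*, *Scd2*, and *Fads2*, beside 19.4% of all genes, and the sterol enzymes called were again *Sqle* and *Dhcr7*.

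Whether the LPS effect itself differed with 3′SL was tested as an interaction. No member passed, nor did any of the 14308 genes (0%), in edgeR. At an unadjusted p under 0.05, 2 sterol enzymes and 1 fatty acid enzyme had a weaker fall with 3′SL, beside 2.3% of all genes in that direction. These were *Dhcr7* (1.07 ± 0.37 on the log2 scale, edgeR adjusted p = 0.737), *Sqle* (0.59 ± 0.22, adjusted p = 0.746), and *Elovl6* (1.31 ± 0.59, adjusted p = 0.816). With the library sets as a block, *Dhcr7* passed both thresholds (1.08 ± 0.18, adjusted p = 0.0166), beside 0.266% of all genes in that direction. DESeq2 called no member and 0.308% of all genes. The interaction lay above 0 for 16 sterol and 9 fatty acid enzymes, beside 49.5% of all genes. Scaling by total counts moved the sterol and fatty acid medians from 0.35 and 0.22 to 0.53 and 0.39 on the log2 scale, and that of all genes from -0.01 to 0.17.

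Addition of 3′SL to LPS was compared directly with LPS alone, using the same LPS libraries as the comparison with PBS. All 31 enzymes had a fold change above 0, beside 48.7% of all genes, but none passed the edgeR test, nor did any of the 14308 genes tested (0%). The lowest adjusted p of a sterol enzyme was 0.153 and that of a fatty acid enzyme 0.391. The direction of 3 fatty acid enzymes rested on single libraries. *Scd1*, at 0.66 in all libraries, was at -0.71 without the LPS + 3′SL library of set 1 and at 2.64 without the LPS library of set 1, *Me1* reached -0.43 without the LPS + 3′SL library of set 3, and *Elovl1* reached -0.0050 without the LPS library of set 3. At least 29 of 31 enzymes lay above 0 when any 1 library was left out, and all 19 sterol enzymes did so in each of these fits. Under the library set block 30 did, all but *Me1* (-0.07). The median log2 fold change was 0.64 over the sterol enzymes and 0.48 over the fatty acid enzymes, beside -0.01 over all genes. At an unadjusted p under 0.05, 14 sterol and 3 fatty acid enzymes were higher, beside 3.6% of all genes. In all 3 sets 19 of 19 sterol enzymes and 10 of 12 fatty acid enzymes were higher, beside 21.3% of all genes.

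The branches differed in how far the groups stood apart. All LPS + 3′SL libraries lay above all LPS libraries for 14 sterol enzymes and 1 fatty acid enzyme, *Acss2*, beside 6.24% of all genes. The 5 sterol enzymes with overlap were *Mvk*, *Idi1*, *Ggps1*, *Hsd17b7*, and *Ebp*. *Elovl6* (1.44 ± 0.44), *Scd2* (1.30 ± 0.66), and *Fads2* (0.95 ± 0.60) had larger fold changes than most sterol enzymes, with larger errors and overlapping groups. The difference between the branches was not tested.

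The 6 members with the lowest p in this comparison were sterol enzymes. *Fdps* (ENSMUSG00000059743.8, chromosome 3: 89093588-89101959, minus strand) was at 60.1, 55.0, and 39.5 CPM with LPS and at 97.7, 99.1, and 83.1 CPM with LPS + 3′SL. It was higher by 0.70, 0.85, and 1.07 on the log2 scale within the sets, and by 0.86 ± 0.15 in the fit (edgeR adjusted p = 0.153). Transcripts of *Fdps* share 26.2% of their words with other genes, mainly *Gm43738*, which overlaps it on the same strand.

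*Msmo1* (ENSMUSG00000031604.6, chromosome 8: 64718139-64733792, minus strand) was at 154, 127, and 129.6 CPM with LPS and at 219, 209, and 208 CPM with LPS + 3′SL. *Sqle* was at 78.8, 64.9, and 59.1 CPM with LPS and at 132, 122, and 99.7 CPM with LPS + 3′SL. Both had groups well apart, with log2 fold changes of 0.63 ± 0.12 and 0.80 ± 0.16 (edgeR adjusted p = 0.153 for each). *Nsdhl* (ENSMUSG00000031349.4, chromosome X: 72918557-72958514, plus strand) was at 23.1, 22.7, and 16.9 CPM with LPS and at 34.5, 37.1, and 29.4 CPM with LPS + 3′SL. *Fdft1* (ENSMUSG00000021273.9, chromosome 14: 63145150-63179578, minus strand) was at 44.6, 39.3, and 39.8 CPM with LPS and at 63.6, 66.8, and 62.5 CPM with LPS + 3′SL. Again no library of one group lay within the other, with log2 fold changes of 0.69 ± 0.15 and 0.64 ± 0.14 (edgeR adjusted p = 0.164 and 0.172).

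*Hmgcs1*, not called between LPS and PBS under TMM scaling, was at 202, 187, and 149 CPM with LPS and at 289, 285, and 260.3 CPM with LPS + 3′SL. In the fit this was 0.63 ± 0.15 on the log2 scale (edgeR adjusted p = 0.213), and in TMM-scaled CPM the LPS + 3′SL libraries also lay above all PBS libraries. With total counts they did not, at 272, 254, and 188 CPM beside 251, 201, and 215 CPM with PBS. *Dhcr7* remained far below its PBS level in both groups. It was at 6.20, 5.33, and 4.36 CPM with LPS and at 11.8, 11.4, and 6.54 CPM with LPS + 3′SL, a log2 fold change of 0.90 ± 0.27 that missed the test (edgeR adjusted p = 0.371). Exons of *Ctsb* overlap *Fdft1* and those of *Gm48342* overlap *Hmgcs1* on the other strand.

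The calls of this comparison depended on how the library sets were treated. With the sets as a block, 13 sterol enzymes were called higher, *Acat2*, *Hmgcs1*, *Pmvk*, *Mvd*, *Fdps*, *Fdft1*, *Sqle*, *Lss*, *Cyp51*, *Msmo1*, *Nsdhl*, *Sc5d*, and *Dhcr7*, with 2 fatty acid enzymes, *Fasn* and *Elovl6*, beside 0.685% of all genes. With DESeq2, 8 sterol enzymes and no fatty acid enzyme were called higher, beside 0.328% of all genes, and all 8 were among the 13. Under the block the smallest adjusted p belonged to *Fdps* (0.87 ± 0.11, adjusted p = 0.00212) and *Nsdhl* (0.69 ± 0.09, adjusted p = 0.00265). The block fit called no member when set 1 or set 2 was left out, beside 1 of 14198 and 0 of 14426 genes in either direction. Without set 3 it called 11 sterol and 4 fatty acid enzymes higher, beside 1.12% of all genes. Without a block and without set 3, edgeR called 8 sterol enzymes and 1 fatty acid enzyme, beside 0.5% of all genes.

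**Figure D4:**
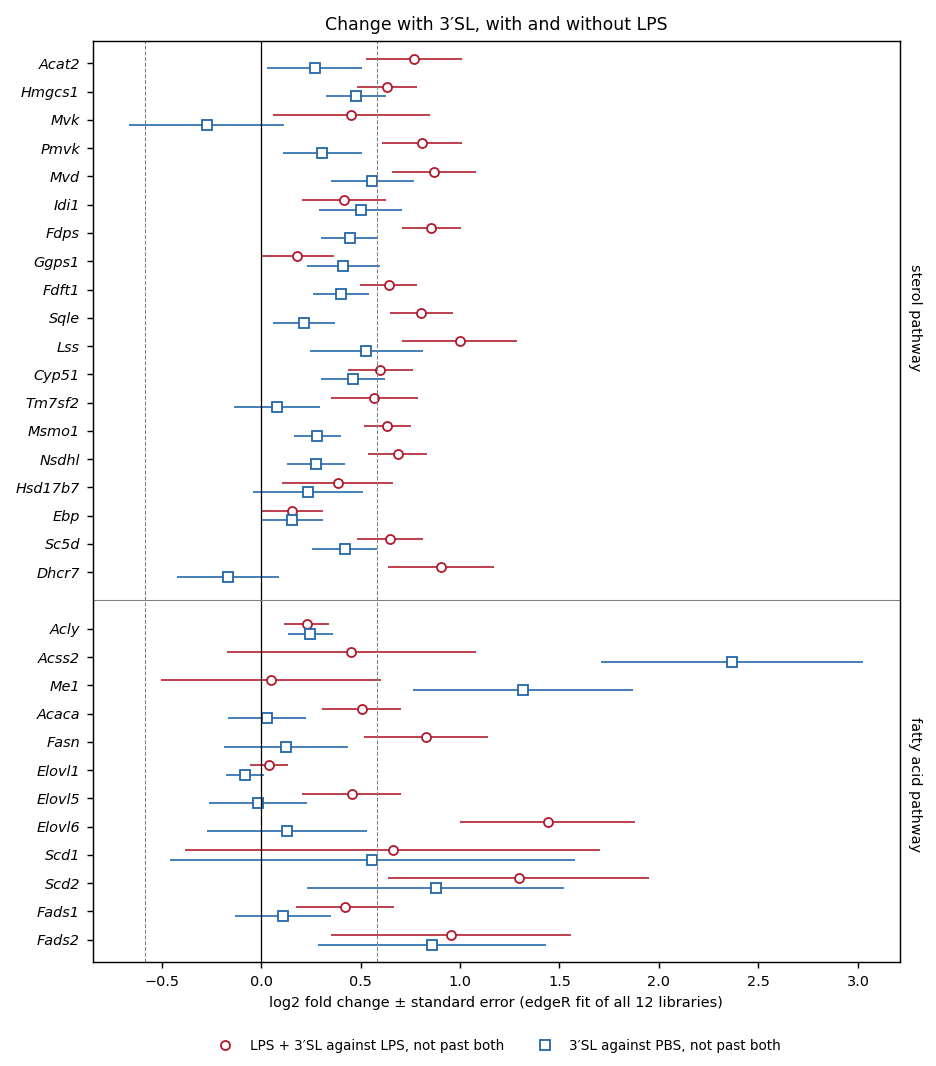
Log2 fold change of each enzyme between LPS + 3′SL and LPS (red circles) and between 3′SL and PBS (blue squares), on the x axis, with the standard error of the edgeR fit as a bar. No symbol passed both thresholds, and dashed lines mark 1.5-fold. All 31 red circles lie right of 0, and bars are widest for *Scd1*, *Acss2*, *Scd2*, and *Fads2*.

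Without LPS, 3′SL was set against PBS. No member and none of the genes tested (0%) passed the edgeR test. Fold changes lay above 0 for 17 sterol and 10 fatty acid enzymes, beside 50.2% of all genes, with medians of 0.31 and 0.19 beside 0.0013 over all genes. At an unadjusted p under 0.05, 9 sterol and 2 fatty acid enzymes were higher, beside 6.34% of all genes. DESeq2 called no member and 0.615% of all genes. Groups lay apart, with 3′SL higher, for 8 sterol and 3 fatty acid enzymes, beside 9.02% of all genes. *Mvd* was at 0.56 ± 0.21 (edgeR adjusted p = 0.437), *Hmgcs1* at 0.47 ± 0.15 (adjusted p = 0.364), and *Dhcr7* at -0.17 ± 0.26 (adjusted p = 0.889).

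In the fatty acid branch the 3′SL library of set 3 stood apart for *Acss2* and *Me1*. *Acss2* was at 2.94, 3.58, and 22.9 CPM with 3′SL, and its log2 ratio to PBS within the sets was 0.55, 1.32, and 3.36. *Me1* was at 7.03, 4.50, and 21.5 CPM with 3′SL and at 5.08, 2.91, and 5.23 CPM with PBS. *Scd2* was at 310, 241, and 265 CPM with 3′SL, above all PBS libraries, at a log2 fold change of 0.88 ± 0.65 (edgeR adjusted p = 0.703). With the library sets as a block, *Fads2* was called higher (adjusted p = 0.0329), beside 1.98% of all genes.

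Relative to PBS, both branches were lower with LPS under either scaling, but where the sterol enzymes stood with LPS + 3′SL depended on the scaling. In TMM-scaled CPM, the mean level with LPS was 74.2% of the PBS mean at the median sterol enzyme and 62.4% at the median fatty acid enzyme. With LPS + 3′SL it was 118% at the median sterol enzyme, with 14 of 19 at or over the PBS mean, and 85.3% at the median fatty acid enzyme, with 5 of 12 at or over it. With total counts, the sterol median with LPS + 3′SL was 80.9%, with 5 of 19 at or over the PBS mean, and the fatty acid median 58.1%, with 1 of 12. The sterol branch thus lay above PBS with TMM scaling and below it with total counts, while the fatty acid branch lay below it with both. The total-count positions include a shift of all genes. With total counts, the all-gene median log2 fold change was -0.71 between LPS and PBS and 0.08 between LPS + 3′SL and LPS. With TMM scaling these were -0.06 and -0.01. No share of all genes was counted beside these enzyme counts. These percentages are ratios of means, without a test. Per set, the TMM-scaled median log2 ratio of LPS + 3′SL to PBS was 0.35, 0.45, and 0.19 for the sterol enzymes and -0.25, -0.36, and -0.22 for the fatty acid enzymes. With total counts these were -0.12, -0.05, and -0.55 and then -0.72, -0.86, and -0.96.

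Single enzymes lay far from these medians. In TMM-scaled CPM, *Sc5d* stood at 176% of its PBS mean with LPS + 3′SL, *Idi1* at 162%, and *Hmgcs1* at 157%, whereas *Dhcr7* stood at 30.1% and *Sqle* at 77.3%. In the fatty acid branch, *Acss2* stood at 468%, *Me1* at 117%, and *Scd1* and *Acly* at 113%, while *Fads1* stood at 27.6%, *Elovl6* at 36.5%, and *Fasn* at 58.6%. With total counts *Sc5d*, *Idi1*, and *Hmgcs1* stood at 118%, 111%, and 107% and *Acss2* at 315%, while *Me1*, *Scd1*, and *Acly* lay below their PBS means, at 76.2%, 80.4%, and 77.1%.

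**Figure D5:**
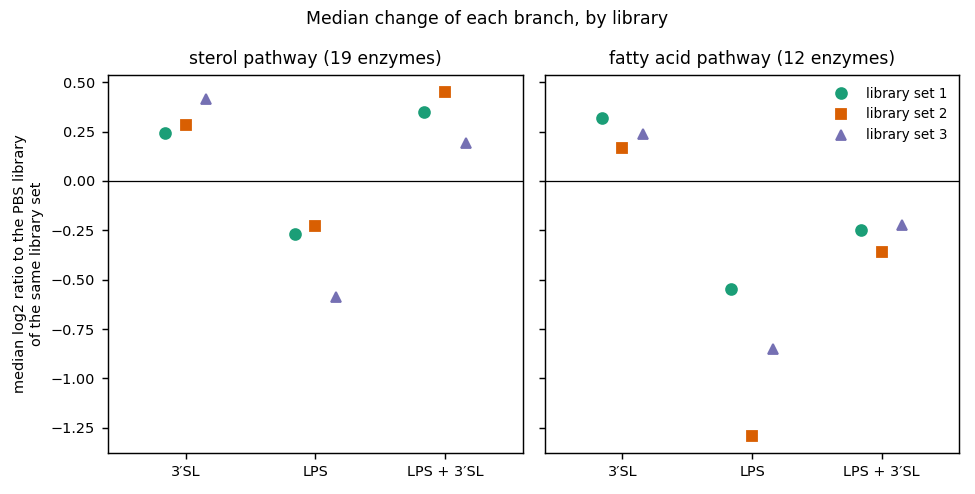
Median over the enzymes of each branch of the log2 ratio to the PBS library of the same set (y axis), for 3′SL, LPS, and LPS + 3′SL (x axis), from TMM-scaled CPM, with 1 symbol per library and no error bar. With LPS + 3′SL the 3 sterol medians lie between 0.19 and 0.45 and the 3 fatty acid medians between -0.36 and -0.22, whereas with total counts, not plotted, the sterol medians would lie between -0.55 and -0.05.

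Regulators of the pathways were counted in the same comparison. Of 9 regulators tested, 2 were called higher and 1 lower by edgeR between LPS and PBS, beside 18.3% and 20.2% of all genes. With total counts, 1 was higher and 5 were lower, beside 10.7% and 46.5% of all genes. *Insig1*, which retains SREBP in the endoplasmic reticulum and is itself an SREBP target, fell by 0.65 on the log2 scale (SE 0.11, edgeR adjusted p = 0.000553), from 137 to 158 CPM with PBS to 90.5 to 96.7 CPM with LPS. *Scap*, the escort protein of SREBP, was higher by 0.83 ± 0.10 (adjusted p = 7.21e-05), a call lost with total counts (0.17). *Nr1h3*, the oxysterol receptor LXRα, was higher by 2.10 ± 0.24 (adjusted p = 5.12e-05), from 13.2 to 25.4 CPM with PBS to 71.3 to 95.5 CPM with LPS. *Srebf1* and *Srebf2*, which encode the SREBP factors, were at -0.21 ± 0.09 and 0.19 ± 0.10, both without a call, and with total counts *Srebf1* was called lower (-0.86). None of the 9 was called between LPS + 3′SL and LPS by edgeR, with the block, or by DESeq2.

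Enzymes next to both branches were counted in the same way. Of 6 enzymes that use prenyl groups for ubiquinone, dolichol, or proteins, *Pdss1* (1.02 ± 0.20, edgeR adjusted p = 0.00154) and *Pggt1b* (0.75 ± 0.12, adjusted p = 0.000501) were called higher and *Fntb* (-0.64 ± 0.19, adjusted p = 0.0150) lower between LPS and PBS, beside 18.3% of all genes higher and 20.2% lower. With total counts none was called higher and 3, *Pdss2*, *Dhdds*, and *Fntb*, were called lower, beside 10.7% and 46.5% of all genes. None of 9 further fatty acid enzymes tested, among them the reductases and dehydratases of the elongation cycle, was called by edgeR or DESeq2, at a median log2 fold change of 0.24. *Fads3* was called lower with the library sets as a block (-0.79), beside 24% of all genes. *Hacd3* (-0.77) and *Tecr* (-0.72) were called lower with total counts, beside 46.5% of all genes. Neither list had a member called between LPS + 3′SL and LPS, where their medians were -0.0040 and 0.07.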

How the data were processed

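The 12 RNA-Seq libraries of BMDMs (3 for each of 4 conditions) were grouped by the intervention in their labels. Unnormalized counts of reads on each gene were deposited by the authors. The submitters' processing notes name FastQC, Trimmomatic, STAR, HTSeq, and DESeq2. Versions, genome build, annotation, and the strand setting of the counting are not given in the sources used here, while the library kit is stranded. Genes were matched, without version numbers, to GENCODE M21 (GRCm38), which named 42462 of 43626 identifiers and all 31 members. Reads and alignments not counted on a gene, 33.2% to 37.1% of each library's total, were left out.

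The 31 members and the other lists were chosen with earlier results of these data known. Genes were filtered with filterByExpr and scaled by TMM, and all libraries were fitted together, with a mean for each condition, in edgeR 4.0.16 (R 4.3.3, quasi-likelihood test, Benjamini-Hochberg adjustment over 14308 genes). Calls required a change of 1.5-fold or more with an adjusted p under 0.05. Each ± is the SE of the log2 fold change. Within-set values are log2 ratios of 2 libraries and carry no error. Values in every library were printed for up to 6 members called per branch and direction with LPS, ranked by fold change, and for the 6 with the lowest p between LPS + 3′SL and LPS. A few others are shown as contrasts and were chosen after their values were seen. Library sets were found by clustering residuals (mean correlation 0.60 within and -0.35 between sets) and match runs of 4 in the titles' running numbers, but are not named in the labels. With the sets as a block, the biological coefficient of variation fell from 0.310 to 0.133. Same-condition libraries differed by more than sampling noise (chi-square of at least 15.6 per gene). Transcripts were searched for 50-nucleotide words shared with other genes, and overlapping exons were listed. The edgeR fit without a block was run on simulated data with known changes. Those data held no library sets, so they do not bear on calls that depend on the sets.

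Alternatives were DESeq2 1.42.0, its size factors in edgeR, total counts, all genes with at least 1 count, at least 10 counts in every library, only the conditions compared, no fold minimum, the library sets as a block, that block with total counts, and leaving out each library.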

Additional observations from a re-analysis of the deposited data

How the results depend on the processing

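Counts of enzymes called are given in the order LPS against PBS and LPS + 3′SL against 3′SL. For sterol enzymes, they were 7 and 2 in edgeR, 4 and 1 in DESeq2, 3 and 1 with DESeq2's size factors in edgeR, 16 and 5 with total counts, and 16 and 9 with the library set block and total counts. With all genes of at least 1 count, the second was 1, beside 1937 of 24679 genes called lower. All these sterol calls were lower. Of 14308 genes, those called lower numbered 2889 and 2120 in edgeR, 2840 and 2189 in DESeq2, and 2682 and 1973 with DESeq2's size factors. They numbered 6657 and 4856 with total counts, 2770 in the second under the library set block, and 7400 and 5907 under the block with total counts. For fatty acid enzymes, the counts called were 6 (1 of them higher) and 3 in edgeR. The second was 6 under total counts and 6 under the library set block, and the counts were 10 and 8 under the block with total counts. For LPS + 3′SL against LPS, 0 sterol and 0 fatty acid enzymes were called in edgeR, 13 and 2 with the library set block, 13 and 3 with the block and total counts, and 8 sterol enzymes in DESeq2. Of 14308 genes, 98 were called higher with the block, 137 with the block and total counts, and 47 in DESeq2. Under the block, with or without total counts, 1 fatty acid enzyme was called for 3′SL against PBS and 1 member for the interaction. Of 14308 genes, 406 and 222 were called in either direction with the block, and 365 and 136 with the block and total counts. Without 1 library, sterol calls ranged from 2 to 7 and from 1 to 2, fatty acid calls from 3 to 7 and from 2 to 4, and the other counts stayed at 0. At most 1 fatty acid call was higher in each comparison. Without the 3′SL library of set 3, 1 of 2 sterol calls in the second was higher, that of *Sc5d*. When 1 library was left out, all genes called lower ranged from 2408 to 3093 and from 1685 to 2155, of 14633 to 14729 tested. Those called higher ranged from 2257 to 2659 and from 1734 to 2232. The fatty acid count with LPS was 3 without the PBS library of set 2 and 3 without the LPS library of set 3. The count of 2 sterol enzymes for LPS + 3′SL against 3′SL was 1 without the set 1 library of PBS, 3′SL, or LPS, the set 2 library of LPS, or the set 3 library of LPS or LPS + 3′SL. The cause of these differences was not tested.

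Other alternatives were chosen after seeing the data. With total counts, the median level relative to PBS moved from 74.2% to 47.9% with LPS and from 118% to 80.9% with LPS + 3′SL for sterol enzymes, and from 62.4% to 40.9% and from 85.3% to 58.1% for fatty acid enzymes. The all-gene median between LPS and PBS moved from -0.06 to -0.71 on the log2 scale. Without set 1, 2, and 3, sterol calls were 4, 3, and 5 for LPS against PBS and 1 each for LPS + 3′SL against 3′SL, and fatty acid calls were 4, 2, and 7 and then 2, 1, and 4. Without set 3, 1 fatty acid call in each comparison was higher. Of 14198, 14426, and 14396 genes tested, those called lower numbered 1921, 1570, and 2994 and then 1211, 865, and 2240. For LPS + 3′SL against LPS, 8 sterol enzymes and 1 fatty acid enzyme were called without set 3, and 11 and 4 with the block, beside 0.5% and 1.12% of all genes called higher.

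Among single members, *Hmgcs1* turned from 0.02 between LPS and PBS to -0.62 with total counts and -0.64 with the block and total counts. *Acss2* turned from -0.15 between LPS + 3′SL and 3′SL to 1.38 without set 3, and lay between -0.58 and 1.46 when 1 library was left out, with 1.46 without the 3′SL library of set 3. The labels give no replicate number that the groups share, but the 3 library sets match runs of 4 in the running numbers of the titles (1 to 4, 5 to 8, and 9 to 12), with 1 library per condition in each. The paired analysis was therefore the replicate block on these sets, which moved the count of sterol enzymes called between LPS + 3′SL and LPS from 0 to 13. Depth was lowest for *Elovl6*, *Scd1*, and *Fads2*, with as few as 13, 7, and 18 reads in an LPS library.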
